A study of Drosophila melanogaster with 4 samples.

Results

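Of the 3229 H2A.V regions called in unstaged wild-type Drosophila melanogaster embryos, 408 (12.6%) were a single calling window, and these 408 are described here. They were chosen by width alone, at most 550 bp, and all came from the 1 H2A.V library. Every one measured 501 bp, the width that a 500 bp calling window takes in the file. The other 2821 regions, called wider regions below, began at 626 bp, had a median width of 1477 bp and reached 9334 bp. The width gap between 501 and 626 bp comes from the calling, in which windows were joined into longer regions, so the class is defined by the absence of a second joined window. The study made 4 chromatin immunoprecipitation libraries from formaldehyde-fixed chromatin (CTCF, H3, H2A.V and an input), 1 of each and all of genotype wt. The called lists of the H2A.V and CTCF libraries were used here. The embryos were not staged, so each library averages over ages and cell types, and there was no replicate. P-values therefore treat regions as units within these libraries, intervals cover counting error only, and neither describes a spread between embryo collections.

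H2A.V is the fly's histone H2A variant, which serves the roles that H2A.Z and H2A.X have in other animals. It is best known from the nucleosomes just downstream of active promoters and from nucleosomes that flank accessible regulatory DNA. CTCF is a zinc-finger protein that binds insulators, and its bound sites are known to be nucleosome-free with well-placed nucleosomes on either side. ACF1, named in the title of the series, is a subunit of chromatin remodelling complexes that space nucleosomes. The single-window regions are the smallest stretches of H2A.V enrichment that the list can hold.

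The H2A.V library held 12260001 tags and the CTCF library 11657333 tags. A window had to hold 67 tags in the H2A.V library to be called. The 408 single-window regions covered 204.4 kb, which was 4.02% of all bp in H2A.V regions. In the deposited order of the list single-window regions came late. The meaning of that order is not recorded. The file header names a column of normalized tag counts that the list itself does not hold, and if the order follows it, late lines are the weaker regions and the parts of the list used below compare weaker with stronger ones. The first stood at line 2009, 0 were in the first 6 of 10 equal parts, and 251 of the 322 lines in the last part (78.0%) were single-window. Tag counts per region were not used here, so no strength is given for a region.

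CTCF peaks lay beside the single-window regions more than in them. A CTCF peak shared at least 1 bp with 47 of the 408 (11.5%, 95% Wilson interval 8.77 to 15.0%), and 28.0% of all 3229 H2A.V regions held one. These shares are not corrected for width, and a wider region has more bp to be overlapped. Per bp covered, the count of overlapping peaks ran the other way, at a ratio of 1.30 to wider regions that did not pass its test (below). A further 84 single-window regions (20.6%, 16.9 to 24.8%) had no overlap but a CTCF peak with its edge at most 1 kb away. The 1 kb on either side also covers more bp than the window itself. Together 131 (32.1%, 27.8 to 36.8%) had CTCF inside or within 1 kb, close to the 36.5% of all H2A.V regions. The remaining 277 (67.9%) had none, and 142 of the 408 (34.8%) had no CTCF midpoint within 10 kb of their edges, near the 33.5% of wider regions.

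The position of CTCF relative to the window centre was narrow. In all, 22 CTCF midpoints lay within 250 bp of a single-window centre, that is, inside the window, a density of 0.108 per kb (95% Poisson interval 0.0676 to 0.163). From 300 to 450 bp, just outside the window edge, lay 64 midpoints, or 0.523 per kb (0.403 to 0.668). The mean over the genome size set at peak calling was 0.0176 per kb, so the inner density was 6.13-fold and the outer density 29.7-fold that mean. The fullest 50 bp bin was 350 to 400 bp from the centre, with 28 midpoints. Beyond 500 bp the density dropped, to 0.0833 per kb at 500 to 750 bp and to 0.0294 per kb at 1000 to 1250 bp. All wider regions pooled held 0.269 per kb within 250 bp of the centre (0.242 to 0.297) and 0.189 per kb at 300 to 450 bp (0.161 to 0.221). The narrower among them, however, also had more CTCF off the centre. Wider regions of at most 1300 bp held 0.237 per kb within 250 bp and 0.307 per kb at 300 to 450 bp, and those of 626 to 650 bp held 0.156 and 0.411 per kb at these distances. An off-centre maximum was thus seen in other narrow regions too. The bins were chosen from the profile itself and carry no test.

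**Figure D1:**
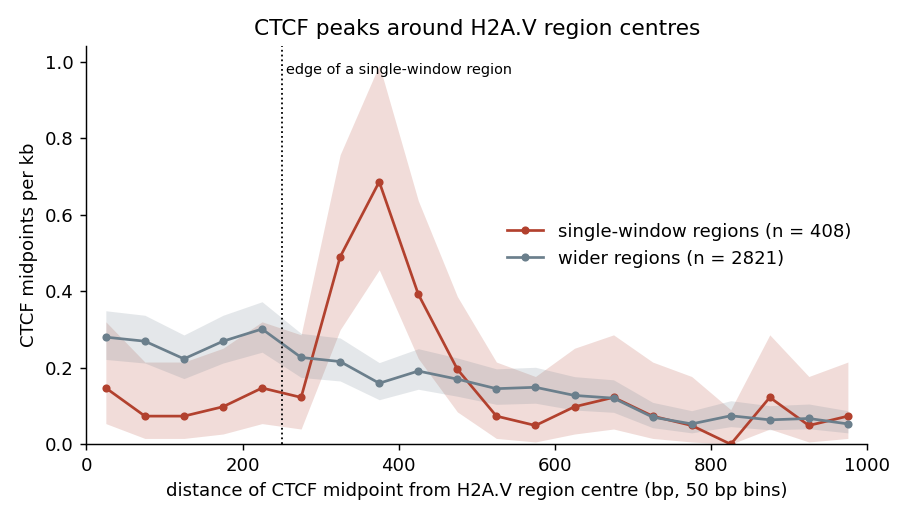
CTCF midpoints per kb (vertical axis) against distance from the H2A.V region centre in bp (horizontal axis, 50 bp bins, both sides added), for the 408 single-window and the 2821 wider regions, with shaded 95% Poisson intervals. The single-window curve has its maximum of 28 midpoints at 350 to 400 bp, outside the dotted window edge, while the wider regions, all widths pooled, have their fullest bin at 200 to 250 bp.

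The wider regions were then compared with the single-window ones in the CTCF peaks around them. Flank and interior are set by the region edges, and so by the width that the rule used. A midpoint 300 to 450 bp from the centre lies in the flank of a single-window region. In a wider region of the median width, 1477 bp, it lies inside. The measure counted from the centre, given after the flanks, uses the same window at every width. How much of the flank difference comes from width alone was not tested. The share with a CTCF midpoint in the outer 1 kb flanks was 109 of 408 single-window regions (26.7%, 22.7 to 31.2%), against 276 of 2821 wider regions (9.78%, 8.74 to 10.9%) and 11.9% of all regions. The odds ratio was 3.36 (95% interval 2.58 to 4.35, two-sided Fisher's exact test, adjusted by Benjamini-Hochberg across 6 tests, adjusted p = 3.41e-18). Because the width that sorted the classes also placed the flanks, this p-value is no independent support for a difference in CTCF. Against wider regions of at most 1300 bp alone, of which 175 of 1131 (15.5%) had a flanking CTCF midpoint, the odds ratio was 1.99 (Fisher's exact test, adjusted p = 6.85e-06). Among regions with no other H2A.V region within 2 kb, it was 82 of 253 single-window against 206 of 1914 wider regions, an odds ratio of 3.98. In the last of 10 equal parts of the list the flank shares were 83 of 251 single-window regions and 15 of 71 wider regions. The odds ratio of 1.84 did not pass the test (Fisher's exact test, adjusted p = 0.0875). In the other 9 parts they were 26 of 157 single-window and 261 of 2750 wider regions, an odds ratio of 1.89 (Fisher's exact test, adjusted p = 0.0246). The first 6 of these parts held only wider regions, so this second comparison does not hold list position steady.

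Counted from the centre the classes did not differ detectably. A CTCF midpoint lay within 1 kb of the centre of 125 of 408 single-window regions (30.6%, 26.4 to 35.3%), against 893 of 2821 wider regions (31.7%, 30.0 to 33.4%) and 31.5% of all. The odds ratio was 0.954 (95% interval 0.755 to 1.20, Fisher's exact test, adjusted p = 0.732). Inside the regions there were 22 CTCF midpoints in 204.4 kb of single-window regions, or 0.108 per kb, against 804 in the wider regions, or 0.165 per kb. The rate ratio of 0.653 (0.407 to 0.996) did not pass the test (exact binomial test given the bp covered, adjusted p = 0.0759). Against wider regions of at most 1300 bp, which held 0.245 CTCF midpoints per kb, the ratio was 0.440 (exact binomial test, adjusted p = 0.000179). When peaks sharing at least 1 bp were counted in place of midpoints, the direction turned, with 48 peaks in single-window regions and 881 in wider regions and a ratio of 1.30 (exact binomial test, adjusted p = 0.119). A CTCF peak centred just outside an edge counts as overlap there, and edges make up more of a narrow region.

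The stitching rule bears on these positions. Called windows on either side of a CTCF site, when close enough to be joined, enter the list as 1 wider region with CTCF in its interior, so a CTCF site beside a single-window region is by construction one with no joined window on its far side. How far the rule sets the contrast between the classes was not tested. The 154 regions just past the width limit, of 626 to 650 bp, stood between the classes in some measures and not in others. Of these, 35 (22.7%) had a CTCF midpoint in the outer 1 kb flanks and 37 (24.0%) shared at least 1 bp with a CTCF peak, both values between those of single-window and wider regions. They held 27 midpoints inside, or 0.277 per kb, and 61 (39.6%) had a CTCF midpoint within 1 kb of the centre, both above the values of either class. In 44 (28.6%) the gap to the next H2A.V region was over 10 kb. On the 5 large arms 34 of 148 (23.0%, 16.9 to 30.4%) were on the X, an interval that overlaps those of both classes (below).

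The 5 single-window regions with a centre closest to a CTCF midpoint are given next, picked for that distance alone. In dm3 coordinates, counted from 1, the single-window region on 2L from 8162176 to 8162676 had its centre 10 bp from the midpoint of the CTCF peak from 8162316 to 8162516. The one on the X from 16836689 to 16837189 was 11 bp from a CTCF midpoint, and the one on 3L from 18660182 to 18660682 was 19 bp from one. On 3R, the regions from 20923062 to 20923562 and from 27811249 to 27811749 were each 24 bp from a CTCF midpoint. These 5 were not alike in their surroundings, with the nearest other H2A.V region 1091 bp away on 2L and 65714 bp away at the second 3R region. Of the 22 midpoints inside single-window regions, 9 lay within 125 bp of the centre and 13 farther out. No gene is named for these places, since no dm3 annotation was used here.

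Single-window regions took a larger share of the list on the X than on the large autosomal arms, with intervals that overlap except for 3R. They numbered 95 on the X, 81 on 2L, 76 on 2R, 67 on 3L, 74 on 3R and 9 on chromosome 4, and the last 6 were spread over 5 heterochromatic or unplaced sequence names. As a share of the arm's H2A.V regions this was 16.1% on the X (95% Wilson interval 13.4 to 19.3%), 14.4% on 2L (11.7 to 17.5%), 12.0% on 2R (9.72 to 14.8%), 11.0% on 3L (8.79 to 13.8%) and 9.80% on 3R (7.88 to 12.1%). Neighbours in this order have overlapping intervals. The interval of the X overlaps those of 2L, 2R and 3L and not that of 3R, and the interval of 2L overlaps all of them. On chromosome 4, the small chromosome with heterochromatin-like packaging, it was 9 of 50 (18.0%, 9.77 to 30.8%), an interval that covers the values of all the other arms. In density over the stretch between the outermost listed peaks of either library, there were 4.24 single-window regions per Mb on the X (95% Poisson interval 3.43 to 5.19) and 3.09 per Mb on 2L, 2R, 3L and 3R together (2.75 to 3.46), a ratio of 1.37. For wider regions the densities were 22.1 per Mb on the X and 23.4 per Mb on these autosomal arms, a ratio of 0.943.

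**Figure D2:**
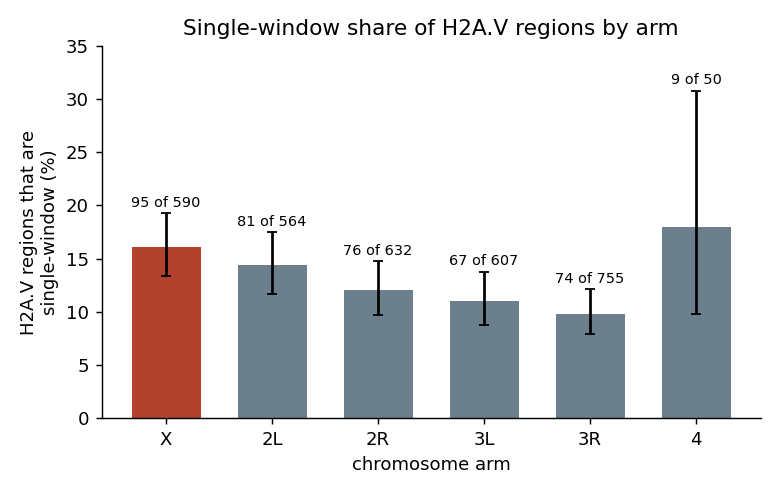
Share of each chromosome arm's H2A.V regions that were single-window, in percent, with 95% Wilson intervals as error bars and the counts above them. The X, at 95 of 590, is the highest of the 5 large arms and 3R, at 74 of 755, the lowest.

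Counting the 5 large arms only (2L, 2R, 3L, 3R, X), the X-linked regions made up 95 of 393 single-window regions (24.2%, 20.2 to 28.6%), against 495 of 2755 wider regions (18.0%, 16.6 to 19.5%) and 18.7% of all. The odds ratio was 1.46 (95% interval 1.12 to 1.88, two-sided Fisher's exact test, adjusted p = 0.0136). That late-listed regions are narrow and more often on the X was known from this same list before the test. The p-value is therefore no independent support for the higher share. Without 3R, the arm with the lowest single-window share, the odds ratio was 1.35 and no longer passed the test (Fisher's exact test, adjusted p = 0.0759). The X share did not fall evenly with width, at 17.4% in wider regions of at most 1300 bp, 16.0% at 1300 to 2000 bp and 21.2% above 2000 bp. In the regions of 626 to 650 bp it was 34 of 148 (23.0%, 16.9 to 30.4%), near the value of the single-window regions.

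The higher X share was not seen once the list was divided by deposited order. In the last of 10 equal parts, the X held 80 of 240 single-window regions (33.3%) and 22 of 68 wider regions (32.4%), an odds ratio of 1.05 (Fisher's exact test, adjusted p = 1). In the other 9 parts it held 15 of 153 single-window regions (9.80%), against 473 of 2687 wider regions (17.6%), and the direction was reversed, with an odds ratio of 0.509 (Fisher's exact test, adjusted p = 0.0332). In part 9 the X share was 13.4% of single-window and 30.8% of wider regions, and in part 8 it was 4.65% of single-window and 23.0% of wider regions. In part 7 it was 0 of 13 single-window and 55 of 305 wider regions. The division into parts was chosen after the data were seen. Among wider regions too the X share was higher late in the list, from 55 of 305 in part 7 to 22 of 68 in part 10. List position and width went together, since single-window regions made up 78.0% of the last part. Which of them the X share follows was not tested.

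**Figure D3:**
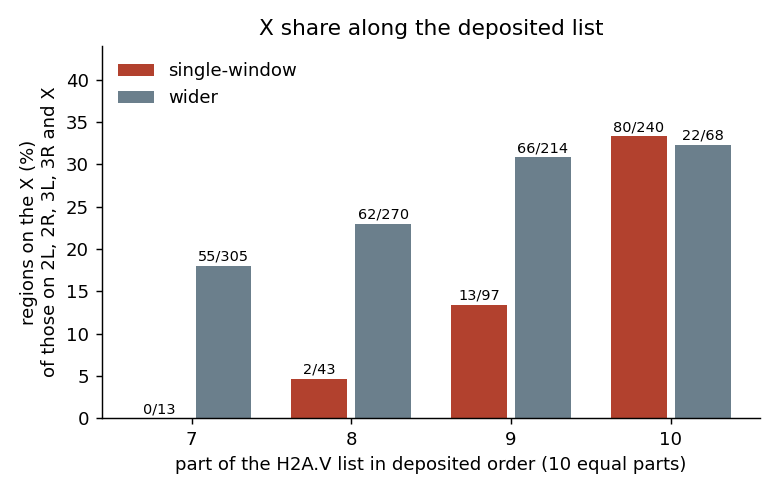
Share of H2A.V regions on the X, in percent of those on the 5 large arms, in parts 7 to 10 of the list in deposited order, with counts above the bars. Within part 10 single-window (80 of 240) and wider regions (22 of 68) stand level, and in parts 7 to 9 the single-window bar is the lower one.

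Along the arms the single-window regions were scattered. In 1 Mb bins they numbered 4.13 ± 2.46 on the X (SD, 23 bins, range 1 to 10) and 3.04 ± 2.10 on the 4 large autosomal arms (SD, 98 bins, range 0 to 9). The fullest bin, picked for its count, was on the X from 11000001 to 12000000, with 10 single-window regions beside 31 wider ones.

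On the X, CTCF was found inside or within 1 kb of 40 of 95 single-window regions (42.1%, 32.7 to 52.1%), against 91 of 298 (30.5%, 25.6 to 36.0%) on the 4 autosomal arms. The odds ratio of 1.65 (95% interval 0.996 to 2.73) did not pass after adjustment (Fisher's exact test, adjusted p = 0.0759). With the distance extended to 2 kb, 49 of 95 on the X and 104 of 298 on the autosomal arms had a CTCF peak, an odds ratio of 1.99 (Fisher's exact test, adjusted p = 0.0106). For overlap of at least 1 bp the shares were 11 of 95 (11.6%) on the X and 36 of 298 (12.1%) on the autosomal arms. CTCF peaks as a whole had a density of 22.6 per Mb on the X and 19.5 per Mb on the autosomal arms. This contrast, too, was smaller once the list was divided by deposited order. In the last part the shares were 37 of 80 on the X (46.3%) and 66 of 160 on the autosomal arms (41.3%; Fisher's exact test, adjusted p = 0.589). In the other parts they were 3 of 15 on the X (20.0%) and 25 of 138 on the autosomal arms (18.1%; Fisher's exact test, adjusted p = 0.739). Over all arms, 103 of 251 single-window regions in the last part (41.0%, 35.1 to 47.2%) had CTCF inside or within 1 kb, against 28 of 157 in the other parts (17.8%, 12.6 to 24.6%).

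Whether the contrast between the X and the autosomes differed between single-window and wider regions was tested directly. A CTCF midpoint lay within 1 kb of the centre of 38 of 95 single-window regions on the X (40.0%) and 87 of 298 on the autosomal arms (29.2%), and of 166 of 495 wider regions on the X (33.5%) and 702 of 2260 on the autosomal arms (31.1%). The ratio of the odds ratios was 1.44 (95% interval 0.856 to 2.44, likelihood ratio test of the interaction in a binomial logistic model, adjusted p = 0.204). Chromosome 4 had CTCF inside or within 1 kb of 0 of its 9 single-window regions, which allows a share of up to 33.3%, and of 20 of its 41 wider regions (48.8%, 34.3 to 63.5%).

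Most single-window regions had another H2A.V region close by. The gap to the nearest other region, from edge to edge, had a median of 3215 bp (quartiles 1124 and 9811 bp), against 3728 bp (1574 and 8584 bp) for wider regions. The smallest gap was 509 bp for a single-window region and 504 bp for a wider one, since nearer windows were joined. Against wider regions of all widths pooled, the spread of gaps was greater among the single-window regions at both ends. Of them 86 (21.1%) lay within 1 kb of another region, against 370 wider regions (13.1%), and 64 (15.7%) had none within 20 kb, against 336 wider regions (11.9%). A total of 99 (24.3%, 20.4 to 28.7%) had no other region within 10 kb, against 628 wider regions (22.3%) and 22.5% of all. Long gaps were not particular to the single-window regions. Of wider regions of at most 1300 bp, 27.5% had no other region within 10 kb and 14.85% none within 20 kb. Their share within 1 kb of another region was 13.3%. On both sides within 10 kb stood other regions for 135 of the 408 (33.1%), against 801 of 2821 wider regions (28.4%). Among wider regions of at most 1300 bp it was 247 of 1131 (21.8%). Gaps come from the same calling and stitching that the width rule used, so they are given as a description with no test.

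**Figure D4:**
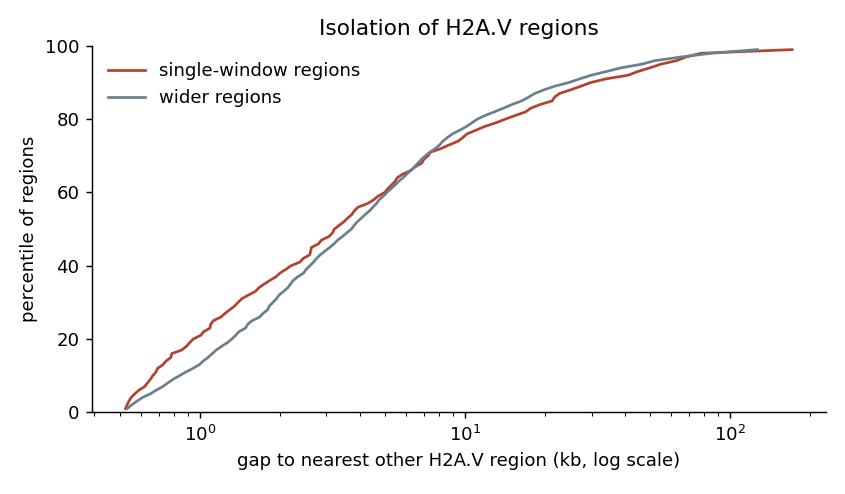
Percentile of regions (vertical axis) against the gap to the nearest other H2A.V region in kb (horizontal axis, log scale), for single-window and wider regions, drawn from the 1st to the 99th percentile. The single-window curve lies above the other, drawn for wider regions of all widths pooled, at short gaps and below it at gaps of 10 and 20 kb.

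The nearest neighbour of a single-window region was itself single-window for 71 of the 408 (17.4%, 14.0 to 21.4%), and that of a wider region was single-window for 331 of the 2821 (11.7%, 10.6 to 13.0%). The median width of the neighbour was 1178 bp for single-window regions and 1380 bp for wider regions. There were 56 pairs of single-window regions next to each other on an arm, 18 of them at most 2 kb apart. Gaps of at most 2 kb numbered 136 with 1 single-window side and 437 between wider regions. Single-window regions were 12.6% of all regions. The number of pairs was not compared with what that share alone would give, so it is not read as clustering. The closest pair lay 529 bp apart on the X, from 22411886 to 22412386 and from 22412916 to 22413416, and had no CTCF peak within 1 kb. On the X and the autosomal arms isolation had similar values, with a median gap of 3169 bp for single-window regions on the X and 3197 bp for those on the 4 large autosomal arms, and 25.3% of those on the X and 23.5% of those on the autosomal arms were more than 10 kb from another region.

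Isolated members of the X and of the large autosomal arms, 3 of each, differed in whether CTCF was near. The widest gap of all, 661238 bp, separated the 2 regions on the unplaced sequence U. On the X, the region from 9672803 to 9673303 was 171.8 kb from any other H2A.V region and had a CTCF midpoint 364 bp from its centre. The one from 4978989 to 4979489 stood 164.7 kb apart and had 2 CTCF peaks within 1 kb, the nearer midpoint 399 bp from its centre. Another on the X, from 12657022 to 12657522, was 130.9 kb apart with a CTCF midpoint 1568 bp away. On the autosomal arms, the region on 3R from 22278342 to 22278842 was 263.2 kb from any other and 20.1 kb from the nearest CTCF midpoint, and that on 2L from 8942956 to 8943456 was 222.4 kb from any other and 9739 bp from a CTCF midpoint. The region on 2L from 9330869 to 9331369, 77.7 kb apart, had one at 405 bp. Of these 6 isolated regions, 3 had a CTCF midpoint at 364 to 405 bp. For comparison, 48 of the 99 single-window regions with gaps over 10 kb (48.5%) had CTCF inside or within 1 kb. The share was 49.8% of wider regions with such gaps.

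The share of regions with CTCF nearby was larger where the next H2A.V region was far, in both classes. Inside or within 1 kb, it was present at 32 of 155 single-window regions with a gap of up to 2 kb (20.6%, 15.0 to 27.7%), at 51 of 154 with a gap of 2 to 10 kb (33.1%, 26.2 to 40.9%) and at 48 of the 99 with no other region within 10 kb (48.5%, 38.9 to 58.2%). For wider regions, in the same order of gaps, the shares were 281 of 907 (31.0%, 28.1 to 34.1%), 454 of 1286 (35.3%, 32.7 to 38.0%) and 313 of 628 (49.8%, 45.9 to 53.7%). The intervals of the classes overlap at gaps of over 2 kb and not at shorter ones, where single-window regions had the lower share. This measure covers more bp around a wider region. With a CTCF midpoint within 1 kb of the centre counted instead, the intervals overlap at the shortest gaps too. The shares there were 17.4% of single-window regions (12.3 to 24.2%) and 25.1% of wider regions (22.4 to 28.1%). Regions that lie near each other are not independent, and these shares carry no test.

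**Figure D5:**
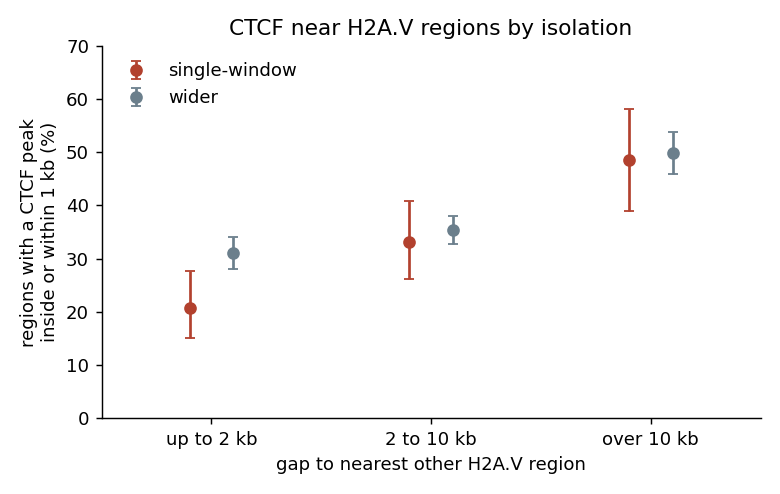
Share of regions with a CTCF peak inside or within 1 kb, in percent with 95% Wilson intervals, by gap to the nearest other H2A.V region, for single-window and wider regions. The single-window share is 20.6% at gaps of up to 2 kb and 48.5% at gaps of over 10 kb, and only at the shortest gaps do the intervals of the classes not overlap. The measure covers more bp around a wider region.

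The share of short gaps between neighbouring H2A.V regions that held CTCF differed with the class of the regions on either side. Of 136 gaps of at most 2 kb with a single-window region on one side and a wider region on the other, 17 (12.5%, 95% Wilson interval 7.95 to 19.1%) held a CTCF midpoint, or 0.116 per kb of gap (95% Poisson interval 0.0673 to 0.185). Of 18 such gaps between single-window regions, 1 did (5.56%, 0.988 to 25.8%). Of 437 gaps between wider regions, 5 did (1.14%, 0.490 to 2.65%), or 0.00952 per kb (0.00309 to 0.0222), which is 0.541 of the genome mean. The gaps had median lengths of 993.5 bp with 1 single-window side, 763 bp between single-window regions and 1174 bp between wider regions. The comparison of gaps was made after the lists had been seen and was not tested.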

How the data were processed

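The submitters' processing notes name Bowtie 1.1.1, HOMER and the build dm3. H2A.V regions came from findPeaks in histone style against the input, per the file headers, with 500 bp windows at least 1000 bp apart or stitched, 152 bp fragments and a 4-fold excess over the input. CTCF peaks were called in factor style at 200 bp, with 4-fold excess over input and over the surrounding 10000 bp. From the deposited files the start and end of each line were used. Column 5, a score in the authors' lists, is 1 throughout and went unused. H3 and input libraries were not analysed here. The H2A.V library carries another protein name in its title, and its antibody label was followed.

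The members and comparisons were chosen with earlier results of these data known, among them that late-listed H2A.V regions are narrow and more often on the X. Named regions follow a rule on nearness to CTCF, isolation, the closest pair and multiple CTCF peaks. Fisher's exact tests, an exact binomial rate test and a logistic interaction test formed 1 family of 6, adjusted by Benjamini-Hochberg, and were tested on simulated data. Midpoints are those of the called intervals. Alternatives covered arms, distances, width limits and parts of the list. Python 3.11.15, NumPy 2.4.6, SciPy 1.17.1, pandas 2.3.3, statsmodels 0.14.6 and matplotlib 3.10.9 were used. No dm3 sequence or annotation was used here.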

Additional observations from a re-analysis of the deposited data

How the results depend on the processing

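Of 59 alternatives to the 6 tests, 45 kept direction and side of the threshold. Values are log2 odds or rate ratios of single-window over wider regions, or of X over autosomal arms. The cause of each change was not tested. The flank share of CTCF, 1.75, ranged from 0.88 to 1.99 over 13 alternatives and missed the threshold in the last of 10 equal parts of the list (0.88). The X share, 0.54, no longer passed without 3R (0.44) or in the last of 10 parts alone (0.06), and was reversed without that part (−0.97, adjusted p = 0.0332, Fisher's exact test). The share within 1 kb of the centre, −0.07 and not called, changed sign without 3R (0.04), with a width limit of 700 bp (0.11), at a distance of 500 bp (0.09) and among regions with no other within 2 kb (0.25). The rate inside, −0.61, passed against wider regions of at most 1300 bp (−1.19) and changed sign with the 700 bp limit (0.04) and with peaks sharing at least 1 bp (0.38). CTCF near X-linked against autosomal single-window regions, 0.73, passed without 3L (0.86) and at 2 kb (0.99), and changed sign for overlap alone (−0.07). The interaction kept its direction and did not pass in any of its 7 alternatives (0.38 to 0.69). Isolation, 24.3% over 10 kb, was 40.0% over 5 kb and 15.7% over 20 kb by definition. Alternatives by list part, and those among regions with no other within 2 kb, were chosen after seeing the data. No paired analysis was possible because there was 1 library for each antibody. Windows under 67 tags are not in the list, so isolation means only that no other region was listed.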

Other observations

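A total of 133 CTCF peaks lay inside or within 1 kb of a single-window region. Of these, 48 overlapped it, 5 overlapped a wider region instead and 80 lay in no H2A.V region. Lying in none was not particular to these peaks. Of all 2459 CTCF peaks, 881 overlapped a wider region and 48 a single-window one, so most of the list lay in none. In the deposited order of the CTCF list, 65 of the 133 came from lines past its middle, as did 31 of the 48 that overlapped. The single-window regions with 2 or more CTCF peaks inside or within 1 kb numbered 4 (0.980%), against 44 wider regions (1.56%). The 4 were on the X, where CTCF peaks as a whole were denser (22.6 against 19.5 per Mb on the autosomal arms), and are too few to compare arms. They ran from 4978989 to 4979489, from 11002495 to 11002995, from 12983929 to 12984429 and from 13232458 to 13232958 (dm3). The second of these shared bases with both of its CTCF peaks.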
